A study of Mus musculus with 12 samples.

Results

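The comparison described here sets mouse embryonic stem (ES) cells against mouse embryonic fibroblasts (MEF), the pluripotent and the somatic reference of the study. That study turned fibroblasts into induced pluripotent stem (iPS) cells with Oct4 together with the Polycomb gene Bmi1, Sonic hedgehog (Shh), oxysterol or purmorphamine. The comparison uses 2 of the 12 arrays of the series, the array labelled ES and the array labelled MEF, which were hybridised on the same slide. A gene was counted when its probe lay well above background on at least 1 of these 2 arrays, and 21638 of the 25413 genes that lay above background on any of the 12 arrays met this rule. The ES cells came from 129/Ola mice and carry blastocysts as their labelled cell type. The MEF are labelled as embryo fibroblasts, with no strain given, and no genotype or treatment is given for either sample. The ES line, the passage and the feeder layer, if any, are not named in the labels. The other 10 arrays hold 9 iPS lines and 1 sample of Bmi1-transduced spheres, and are used here only to choose a probe for each gene and to show how far apart 2 lines of the same kind can lie.

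ES cells are derived from the inner cell mass of the blastocyst and can form every tissue of the embryo. They are held in this state by a network of transcription factors around Pou5f1 (Oct4), Sox2 and Nanog, they grow as compact epithelial colonies joined by E-cadherin, and they divide with a short G1 phase. Fibroblasts are mesenchymal cells that migrate singly, pull on their surroundings with actin stress fibres and secrete collagen and other matrix proteins, and turning one cell type into the other requires that both programmes be exchanged.

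Each RNA was labelled with Cy3 and hybridised to 1 array with probes of 60 bases, so the comparison has no replicate check and carries no p-value. A level is given as the log2 of a gene's signal over the 75th percentile of its array, so that 0 is a signal at that percentile, and a difference is the ES level minus the MEF level. Levels of different genes come from different probes and are not compared with each other. Genes whose 2 levels were 2-fold or more apart, with the higher one well above background, were called higher or lower. Where the lower array did not lie well above background, its signal was raised to the lowest signal among the probes that did, and the difference is given as "at least" a fold. That lowest signal was -5.36 on the ES array and -6.85 on the MEF array. A spot saturated on the higher array gives a bound in the same way. In bulk RNA, fewer cells of a type and less RNA per cell cannot be told apart. The percentage of spots well above background was 64.9 on the ES array and 72.8 on the MEF array, within the range of 58.4 to 80.0 over the 12 arrays.

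The labels were checked against marker genes. All 8 pluripotent markers lay well above background on the ES array and 5 of the 8 on the MEF array, and their summed signal was 98.8 times the array's 75th percentile in ES and 0.272 times in MEF. Of 9 fibroblast markers, 6 lay above background on the ES array and all 9 on the MEF array, with sums of 5.7 in ES and 133 in MEF. The fibroblast markers that were dim in ES were Dcn, Postn and Twist2, whereas Col1a1, a chain of type I collagen, lay at 0.73 in ES and 0.68 in MEF. The part of any fibroblast RNA in the ES sample was not tested. Of 5 macrophage markers, 1 lay above background in ES (Cd68) and 4 in MEF. Tyrobp was dim in ES at -6.01 and lay at 0.93 in MEF, and Adgre1 was dim in ES at -5.80 and lay at 0.59 in MEF. Cd68 lay at 1.73 in ES and 0.08 in MEF, and Csf1r was dim in ES at -5.14 and lay at -4.95 in MEF. The 3 probes of Csf1r differed by -5.83 to -0.19. The summed signal of the 5 was 3.39 times the 75th percentile in ES and 4.51 times in MEF. Ptprc, the common leukocyte antigen, was dim on both arrays.

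ES cells and MEF differed across more than the known marker genes. In ES, 6760 genes (31.2% of those counted) were at least 2-fold higher and 5234 (24.2%) at least 2-fold lower, and the levels on the 2 arrays correlated across genes at r = 0.731 (genes are not independent replicates). At least 8-fold, 2405 genes were higher and 1659 lower, and at least 64-fold, 521 were higher and 356 lower. Unless stated, counts of genes past a fold, here and below, used dim signals as measured, not raised to the floor. The median difference over all genes was 0.20, with quartiles of -0.95 and 1.41. With dim signals raised to each array's floor, 4408 genes rather than 5234 were called lower at 2-fold. Of the genes counted, 17190 lay well above background on both arrays, 1337 on the ES array alone and 3111 on the MEF array alone. The scatter of levels shows both wings and the genes that sat at the background of the other array.

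**Figure D1:**
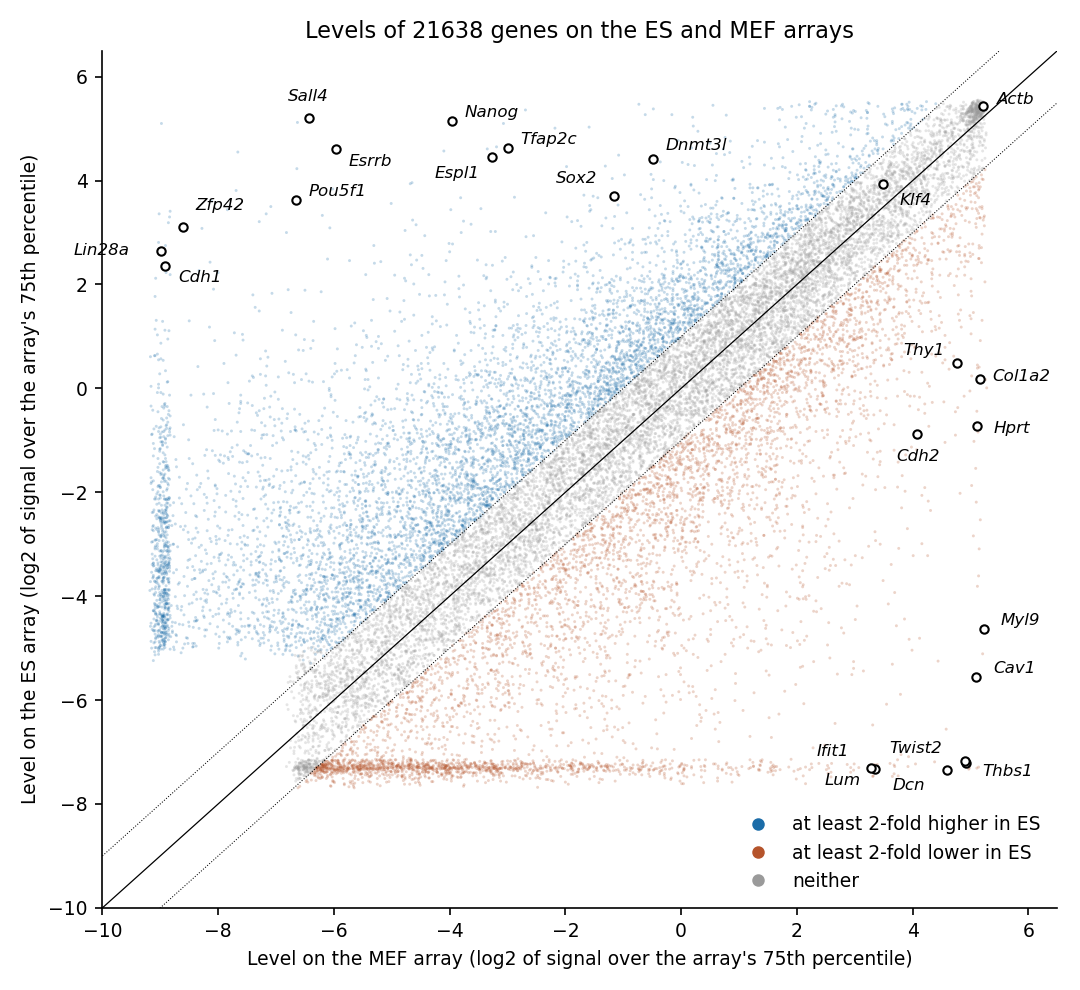
Level of each of the 21638 genes on the MEF array (horizontal) and on the ES array (vertical), both as log2 of signal over the array's 75th percentile, with genes at least 2-fold higher in ES in blue, at least 2-fold lower in brown and the rest in grey. The solid line marks equal levels and the dotted lines a 2-fold difference. The bands at the left and bottom edges are genes not well above background on the MEF or the ES array. Pou5f1, Nanog and Cdh1 lie far above the diagonal, Dcn, Thbs1 and Cav1 far below it, and Klf4 and Actb close to it. Actb was saturated on both arrays.

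The only measure of spread in the series comes from pairs of iPS lines made in the same way. Between the 2 lines of each of the 4 iPS groups that hold 2, 31.8% (Bmi1 and Oct4), 41.7% (oxysterol and Oct4), 32.8% (oxysterol and Oct4 from tail-tip fibroblasts) and 32.7% (purmorphamine and Oct4) of genes were at least 2-fold apart, against 55.4% between ES and MEF. At least 8-fold apart were between 6.2% and 9.2% of genes in those pairs, against 18.8% between ES and MEF. The gap depended on the level. Among genes whose higher array lay below -4, 51.8% were at least 2-fold apart between ES and MEF, inside the range of 45.5% to 55.0% between sister lines. Among genes above 2, 44.2% were at least 2-fold apart between ES and MEF, against 8.4% to 21.5% between sister lines, and 12.6% were at least 8-fold apart, against 1.1% to 2.9%. At the lowest levels, 2-fold differences were thus as frequent between sister lines as between ES and MEF. Some sister lines differed from each other in fibroblast genes, so the spread between them is wide for those genes. For Dcn it was 8.16 on the log2 scale, and for Pou5f1 0.55 (root mean square over the 4 pairs).

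**Figure D2:**
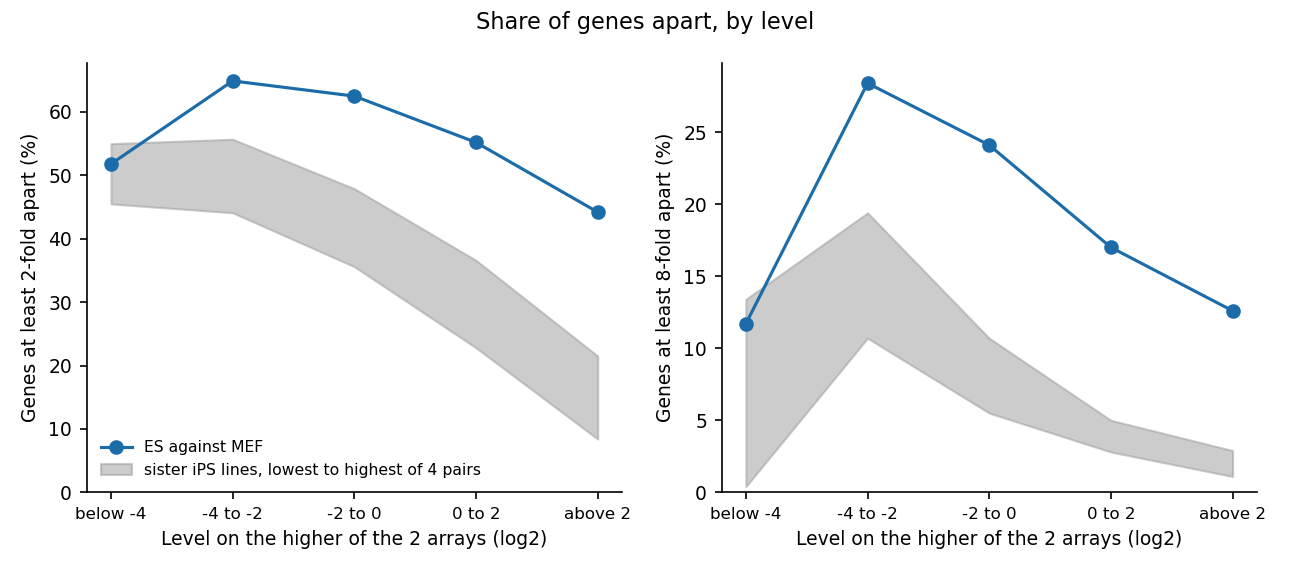
Percentage of genes at least 2-fold (left) and at least 8-fold (right) apart, by the level on the higher of the 2 arrays (log2 of signal over the 75th percentile), between ES and MEF (blue points) and between sister iPS lines (grey band, lowest to highest of 4 pairs). The ES against MEF shares leave the band above a level of -4, and at the highest levels reach 44.2% and 12.6%.

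The genes were grouped into 59 lists by role, which hold 1769 genes, of which 1656 were counted. The lists with the highest medians in ES were the core pluripotency factors, the germline genes and the ES marker genes. Those with the lowest were chemokines and cytokines, fibroblast surface markers, interferon-stimulated genes and genes of the X-inactivation centre and the Y chromosome. Ribosomal proteins and subunits of the respiratory chain had medians of 0.32 and 0.31, near that of all genes. The plot of the lists shows every member.

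**Figure D3:**
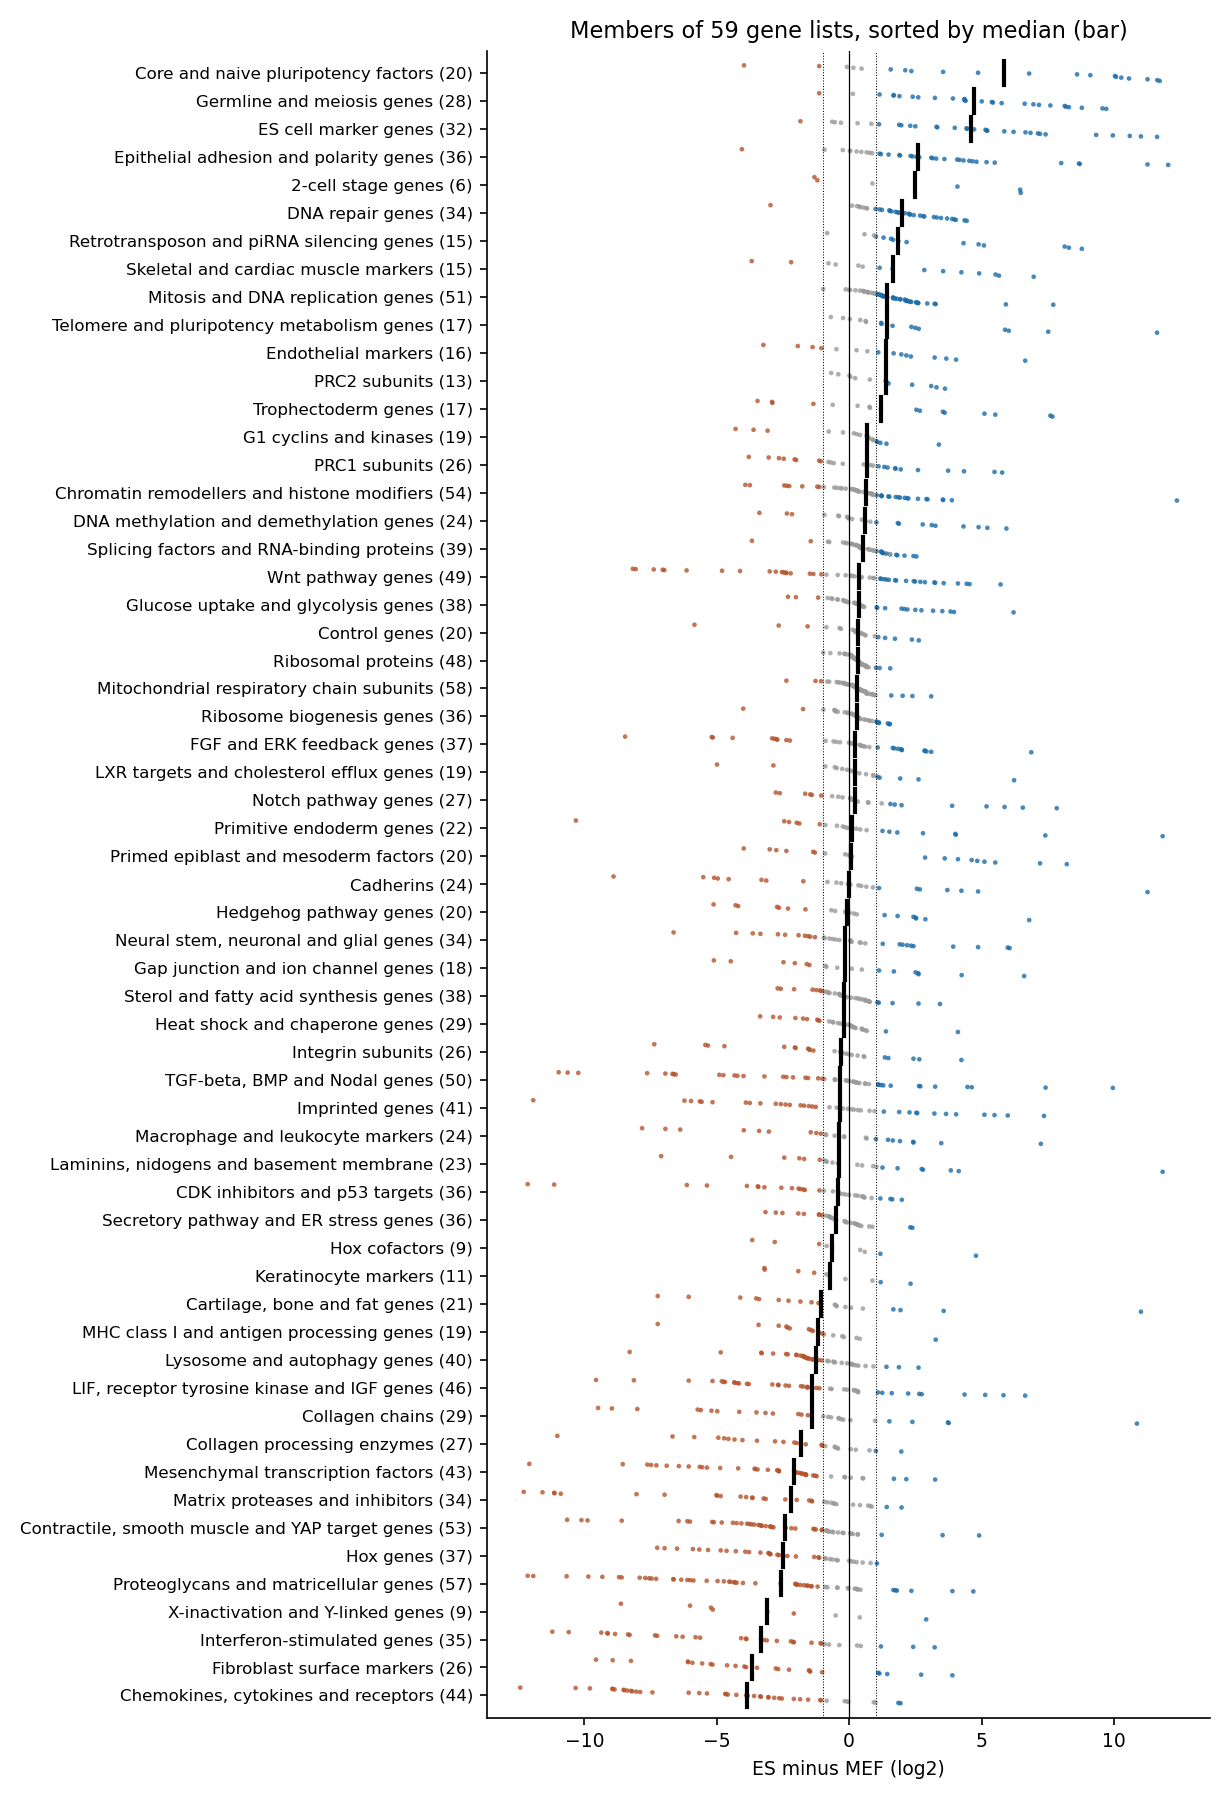
Difference between ES and MEF (ES minus MEF, log2) of each counted member (point) of 59 gene lists, with the list's median as a black bar and the number of members in brackets. Blue points are at least 2-fold higher in ES, brown at least 2-fold lower and grey neither. Medians run from 5.84 for core pluripotency factors to -3.86 for chemokines, cytokines and receptors.

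The core pluripotency factors were mostly higher in ES, although most also passed the background filter in MEF. All 20 lay well above background on the ES array and 16 on the MEF array. Some of these lay close to the lowest such signal on the MEF array, -6.85. Of the 20, 15 were higher in ES and 2 lower, with a median of 5.84 against 0.20 for all genes. Pou5f1 (Oct4), which every ES cell needs, lay at 3.62 on the ES array and -6.66 on the MEF array, a difference of 10.28. Nanog, which guards ES cells against differentiation, lay at 5.14 in ES, where its spot was saturated, and -3.96 in MEF, so that it was at least 551-fold higher. Sox2, the partner of Oct4, lay at 3.71 in ES and -1.16 in MEF, a difference of 4.87. All 3 passed the filter in MEF, Pou5f1 close to that lowest signal, and Sox2 was the least far apart. The orphan receptor Esrrb lay at 4.60 in ES and -5.97 in MEF, a difference of 10.57. Sall4, a zinc-finger factor of the inner cell mass, was saturated in ES at 5.21 and lay at -6.43 in MEF, at least 3190-fold apart. Zfp42 (Rex1), a widely used ES marker, lay at 3.11 in ES and was dim in MEF, at least 998-fold higher.

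Klf4 and Myc, the other reprogramming factors of the classical set, were not part of this separation. Klf4 lay at 3.94 in ES and 3.48 in MEF, a difference of 0.47. Myc lay at 0.81 in ES and 1.93 in MEF, a difference of -1.13, whereas its relative Mycn lay at 2.79 in ES and -4.01 in MEF. Gbx2, a homeobox factor linked to naive pluripotency, was the member furthest lower in ES, at -3.03 against 0.94 in MEF. Klf2 was saturated on both arrays by the probe used, while its second probe was 3.45 higher in ES. Stat3, the effector of the cytokine LIF, lay at 4.99 in ES and was saturated in MEF at 5.07.

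The promoter of Zfp42 is shown because it is a widely used reporter of the ES state. These are the 250 bases before its start (RefSeq, GRCm38.p6, chr8:43307010-43307259, minus strand), and the capitals mark the octamer ATGCAAAT, a motif of Oct factors, found on the opposite strand 186 bases before the start.
Zfp42: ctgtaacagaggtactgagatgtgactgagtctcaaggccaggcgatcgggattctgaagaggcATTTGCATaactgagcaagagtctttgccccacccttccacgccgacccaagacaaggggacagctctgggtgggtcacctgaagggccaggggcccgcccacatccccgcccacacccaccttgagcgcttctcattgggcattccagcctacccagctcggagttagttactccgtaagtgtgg
The octamer, searched on both strands, stood in 1.6% of the 13072 promoters of counted genes that RefSeq's table holds (windows of 250 bases before and 50 after the start), in 1.9% of those at least 8-fold higher in ES and in 1.5% of those at least 8-fold lower. A match is a description of the letters and not a binding site.

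Markers of ES cells beyond the core factors followed the same pattern. Of 32 counted, 26 were higher in ES and 1 lower, with a median of 4.59. Lin28a, an RNA-binding protein that blocks the let-7 microRNAs, lay at 2.64 in ES and was dim in MEF, at least 721-fold higher. Alpl, the tissue-nonspecific alkaline phosphatase that stains ES colonies, was at least 526-fold higher. Dppa4, a chromatin protein of pluripotent cells, was at least 555-fold higher, and the TGF-beta family ligand Gdf3 at least 249-fold. Tdgf1 (Cripto), the co-receptor of Nodal, was measured above background on both arrays, at 3.44 in ES and -3.98 in MEF. The glucose transporter Slc2a3 was saturated in ES at 5.47 and lay at -0.73 in MEF. Spp1 (osteopontin) was the member lower in ES, at 1.91 against 3.75 in MEF.

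Germ cell genes were mostly higher in ES. Of 28 germline and meiosis genes, 26 were higher in ES and 1 lower, with a median of 4.70. Stra8, which is needed for entry into meiosis, lay at 0.66 in ES and was dim in MEF, at least 183-fold higher. Mael, a component of the piRNA pathway, lay at 1.07 in ES and was at least 242-fold higher. Tex19.1, which protects germ cells against retrotransposons, was at least 79.8-fold higher and the RNA helicase Mov10l1 at least 64.6-fold. For Dazl, a germ cell RNA-binding protein, the probe used was 9.57 higher in ES but a second probe differed by -3.30, so its direction rests on the probe. Of 15 genes for silencing of retrotransposons, 12 were higher in ES and none lower. They include Dnmt3l, the cofactor of the de novo methyltransferases, at 4.42 in ES and -0.48 in MEF, and Zfp57, which keeps imprints methylated, at 4.35 in ES and 0.02 in MEF. Among the 6 genes of the 2-cell stage, Zscan4c lay at 1.69 in ES and -4.79 in MEF and Tcstv1 at 1.02 in ES and -5.44 in MEF, while Zfp352 was lower in ES by a difference of -1.31.

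Of 22 genes of the primitive endoderm, one of the first lineages of the blastocyst, 8 were higher in ES (36.4%) and 6 lower (27.3%), near the 31.2% and 24.2% of all genes. Of 17 trophectoderm genes, 9 were higher in ES and 4 lower, and of 20 primed epiblast and mesoderm factors 9 and 6. In the trophectoderm list, Tfap2c, which pluripotent and germ cells also use, lay at 4.62 in ES and -2.99 in MEF. Cdx2 lay at -1.21 in ES and was dim in MEF, at least 46.0-fold higher, and Eomes lay at -1.42 in ES and -6.53 in MEF. Otx2, a factor of the primed epiblast, lay at -1.73 in ES and was at least 34.8-fold higher. Fgf5, the classical marker of the primed epiblast, was dim in ES and lay at -4.89 in MEF. In the endoderm list, Lama1, a laminin chain of the embryonic basement membrane, lay at 2.81 in ES and was at least 807-fold higher, and Sox17 lay at -1.48 in ES and was at least 41.4-fold higher. Gata6 lay at 5.16 in ES and 4.50 in MEF, and Gata4 at 0.20 in ES and 0.35 in MEF, and each of them had another probe over 7 higher in ES.

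Epithelial genes were mostly higher in ES and mesenchymal transcription factors mostly lower. Of 36 epithelial adhesion and polarity genes, 26 were higher in ES and 1 lower (median 2.59). Of 43 mesenchymal transcription factors, 3 were higher in ES and 34 lower (median -2.08). Cdh1 (E-cadherin), the adhesion protein of epithelia and ES colonies, lay at 2.36 in ES and was dim in MEF at -8.91, at least 592-fold higher. Cdh2 (N-cadherin), its mesenchymal counterpart, lay at -0.88 in ES and 4.08 in MEF, a difference of -4.96. The tight junction protein Cldn7 lay at 3.19 in ES and was at least 1050-fold higher, and Cldn6 lay at 4.57 in ES and -4.10 in MEF. The desmosome protein Pkp3 was at least 250-fold higher, and the polarity protein Crb3, at -0.42 in ES, at least 85.9-fold. Rab25, a small GTPase of epithelia, was the exception: it was dim in ES and lay at -3.23 in MEF.

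On the mesenchymal side, Twist2, a basic helix-loop-helix factor of fibroblasts, was dim in ES at -7.18 and lay at 4.90 in MEF, at least 1230-fold lower. The homeobox factor Prrx1 lay at -3.22 in ES and 4.26 in MEF, and its 6 probes differed by -11.18 to -0.51. Tbx15 lay at -3.93 in ES and 3.69 in MEF, though another of its 3 probes differed by 0.02, and Foxc1 was at least 86.6-fold lower. The Zeb and Snai repressors of E-cadherin differed by less than the factors above, by the probes used. Zeb2 lay at -0.90 in ES and 4.74 in MEF, Snai2 at -0.18 in ES and 3.39 in MEF, Zeb1 at 2.42 in ES and 4.15 in MEF, and Snai1 at -2.94 in ES and -1.30 in MEF. Among 24 cadherins and protocadherins, 7 were higher in ES (29.2%) and 8 lower (33.3%), against 31.2% and 24.2% of all genes. Pcdh7 was dim in ES and lay at 1.55 in MEF, at least 121-fold lower, and the planar polarity cadherin Celsr1 lay at 1.66 in ES and -3.21 in MEF.

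**Figure D4:**
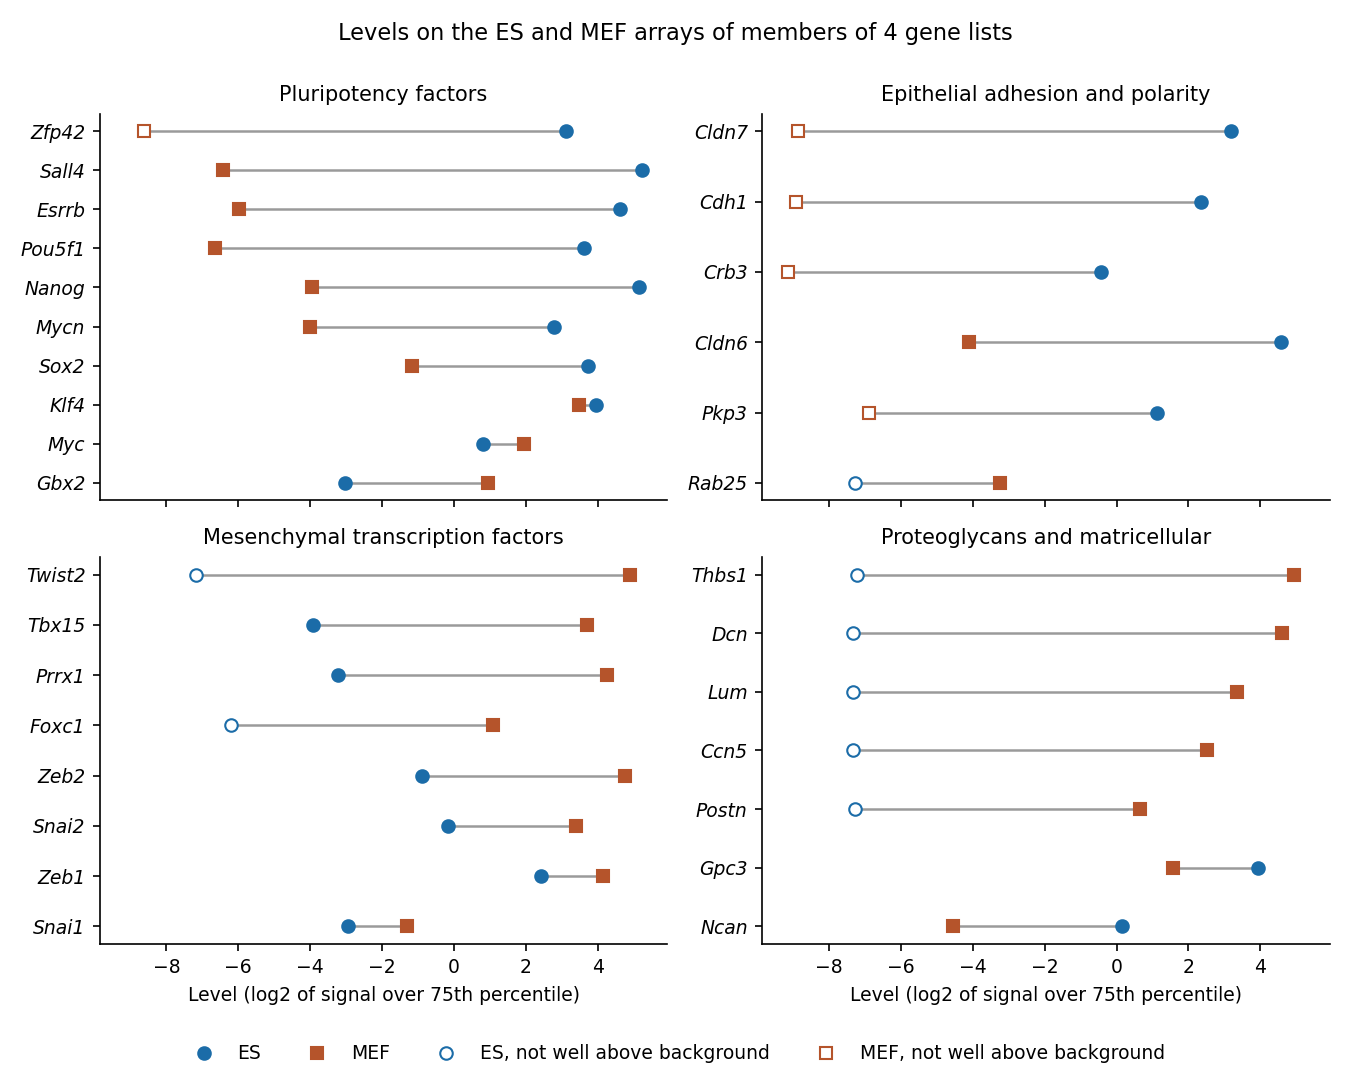
Level (log2 of signal over the array's 75th percentile) on the ES array (blue circles) and the MEF array (brown squares) of members named in the text from 4 lists, sorted by their difference, with open symbols for signals not well above background. Pou5f1 and Cdh1 lie at 3.62 and 2.36 in ES, against -6.66 and -8.91 in MEF, and Twist2 and Dcn at -7.18 and -7.34 in ES, against 4.90 and 4.59 in MEF. Levels of different genes are not comparable.

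The promoter of Crb3 carries 3 copies of the E-box CACCTG, the letters that Snai and Zeb repressors bind, and is shown as an example of an epithelial gene with several copies. These are the 250 bases before its start (RefSeq, GRCm38.p6, chr17:57061951-57062200, plus strand), with the E-box in capitals on either strand, 118, 63 and 7 bases before the start.
Crb3: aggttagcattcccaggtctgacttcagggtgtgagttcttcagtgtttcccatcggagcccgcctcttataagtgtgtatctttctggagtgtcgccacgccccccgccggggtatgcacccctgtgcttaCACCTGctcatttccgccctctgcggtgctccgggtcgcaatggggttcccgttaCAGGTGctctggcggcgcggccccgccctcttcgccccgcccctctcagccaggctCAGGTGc
CACCTG on either strand stood in 25.6% of the promoters of genes at least 8-fold higher in ES, in 15.4% of those at least 8-fold lower and in 18.7% of all 13072. The shares at 2-fold were 22.2% and 16.0%. These shares are descriptions with no test.

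Genes of the fibroblast extracellular matrix were mostly lower in ES. Of 57 proteoglycans and matricellular genes, 6 were higher in ES and 40 lower, with a median of -2.59. Dcn (decorin), a small leucine-rich proteoglycan that binds collagen fibrils, was dim in ES at -7.34 and lay at 4.59 in MEF, at least 993-fold lower. Lum (lumican), of the same family, was at least 420-fold lower. Thbs1 (thrombospondin 1), which activates TGF-beta, was dim in ES at -7.22 and lay at 4.92 in MEF, at least 1240-fold lower. The 3 probes of Thbs1 differed by -12.14 to -2.75. Ccn5, a secreted matricellular protein, was at least 234-fold lower. In the other direction, the brain proteoglycan Ncan lay at 0.14 in ES and -4.55 in MEF, and the cell surface proteoglycan Gpc3 at 3.93 in ES and 1.58 in MEF.

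Of 29 collagen chains, 5 were higher in ES and 15 lower, with a median of -1.42, which was -0.73 once dim signals were raised to the array's floor. The fibril collagen chain Col5a2 was dim in ES and lay at 2.25 in MEF, at least 196-fold lower, and Col8a1 was at least 497-fold lower. Of the type I collagen chains, Col1a2 lay at 0.18 in ES and was saturated in MEF at 5.16, whereas the probe used for Col1a1 differed by 0.05 and another of its probes by -8.63. The transmembrane collagen Col13a1 lay at 4.23 in ES and -6.64 in MEF, a difference of 10.87, while its second probe differed by 0.48. Of 27 collagen processing enzymes, 2 were higher in ES and 17 lower (median -1.82). Lox, which crosslinks collagen, was dim in ES at -7.09 and lay at 3.93 in MEF, at least 629-fold lower. Bmp1, which trims procollagen, lay at -4.24 in ES and 2.42 in MEF.

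Of 23 laminins and other basement membrane genes, 7 were higher in ES (30.4%) and 6 lower (26.1%), near the shares of all genes. Lama1 (above), Lama5 and Lamc1 were higher in ES, and Lama4 lay at -1.64 in ES and 2.82 in MEF. Of 26 integrin subunits, 5 were higher in ES and 11 lower. Itga6, a laminin receptor subunit, lay at 4.84 in ES and 3.48 in MEF, and Itgb4 at 1.25 in ES and -1.40 in MEF. The collagen receptor subunits Itga2 and Itga11 were dim in ES and lay at 0.05 and -1.89 in MEF, at least 42.7-fold and 11.1-fold lower, and the second probe of Itga2 differed by -0.70. The collagen receptor kinase Ddr2 was dim in ES and lay at 2.22 in MEF, at least 192-fold lower, while its second probe differed by -1.27. Other integrin subunits of both kinds were not called by the probe used. The laminin receptor subunits Itga3 and Itga7 differed by 0.55 and 0.57, and the collagen receptor subunits Itga1 and Itga10 by -0.24 and -0.35. The 3 probes of Itga3 differed by 0.55 to 2.25 and the 4 of Itga1 by -3.77 to -0.24, and the second probe of Itga7 by -1.68.

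Of 26 fibroblast surface markers, 5 were higher in ES and 21 lower, with a median of -3.68. Vcam1, an adhesion receptor, lay at -3.81 in ES and was saturated in MEF at 5.12, at least 489-fold lower. Ly6c1 was at least 301-fold lower. Cspg4 (NG2) lay at -4.62 in ES and 1.46 in MEF. Thy1, the classical fibroblast marker, lay at 0.49 in ES and 4.77 in MEF, and so stayed well above background in ES. Dpp4, a marker of a fibroblast lineage, was higher in ES, at 0.99 against -2.90 in MEF.

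Contractile and YAP target genes were lower in ES in 35 of 53 cases and higher in 3, with a median of -2.42. Cav1 (caveolin 1), which forms membrane caveolae, was dim in ES at -5.55 and saturated in MEF at 5.10, at least 1410-fold lower. Myl9, the regulatory light chain of smooth muscle and non-muscle myosin, lay at -4.64 in ES and was saturated in MEF at 5.24, at least 940-fold lower. Ankrd1, a YAP target, was at least 301-fold lower, and Zyx (zyxin), a focal adhesion protein, lay at -2.17 in ES and 4.27 in MEF. Tagln (SM22), often taken as a fibroblast and smooth muscle marker, lay at 5.11 in ES and was saturated in MEF at 5.07 by the probe used, while its second probe differed by -8.06. Des (desmin) went the other way, at 1.70 in ES and -3.21 in MEF.

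Of 34 matrix proteases and inhibitors, 2 were higher in ES and 21 lower, with a median of -2.20. Mmp3 (stromelysin 1) was dim in ES at -7.31 and lay at 4.98 in MEF, at least 1300-fold lower. Mmp13 (collagenase 3) was at least 518-fold lower and Mmp10 at least 551-fold lower. Serpinf1, a secreted serpin, was at least 859-fold lower. The 3 metalloprotease genes lie in 1 cluster on chromosome 9, and the promoters of 2 of them are shown because both hold the AP-1 motif TGANTCA (capitals) close to the start, 35 bases before it in Mmp13 and 46 bases before it in Mmp3. Each is the 250 bases before the start (RefSeq, GRCm38.p6, plus strand), at chr9:7272264-7272513 for Mmp13 and chr9:7445572-7445821 for Mmp3.
Mmp13: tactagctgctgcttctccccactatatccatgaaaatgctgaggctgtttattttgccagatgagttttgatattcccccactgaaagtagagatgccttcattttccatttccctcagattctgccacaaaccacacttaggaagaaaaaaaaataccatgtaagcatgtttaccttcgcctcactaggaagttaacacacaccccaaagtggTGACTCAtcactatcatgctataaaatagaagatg
Mmp3: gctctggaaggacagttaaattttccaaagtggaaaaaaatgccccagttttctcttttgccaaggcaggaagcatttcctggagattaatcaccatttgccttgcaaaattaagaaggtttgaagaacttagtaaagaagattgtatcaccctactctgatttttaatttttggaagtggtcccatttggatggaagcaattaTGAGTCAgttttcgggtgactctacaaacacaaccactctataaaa
TGANTCA on either strand stood in 9.7% of the promoters of genes at least 8-fold lower in ES, in 6.2% of those at least 8-fold higher and in 6.0% of all 13072. Of the AP-1 subunits, Jun lay at -2.65 in ES and 2.50 in MEF and Fosl1 at -4.13 in ES and 1.07 in MEF, whereas Fosb lay at 3.85 in ES and 0.93 in MEF. Fos, Fosl2, Junb and Jund are not reported here, and a part of AP-1 in these differences was not tested.

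Hox genes, which give cells their position along the body axis, were mostly lower in ES. Of 37 counted, 1 was higher in ES and 24 lower, with a median of -2.48, which was -1.32 with dim signals raised to the floor. Hoxb2 was dim in ES and lay at 0.01 in MEF, at least 41.4-fold lower, and Hoxb7 at least 33.5-fold lower. The second probe of Hoxb2 differed by -1.96. Hoxa9 was dim in ES and lay at 0.53 in MEF, at least 59.7-fold lower. Hoxd9 lay at -2.94 in ES and 2.73 in MEF, and Hoxd13, the most 5' gene of its cluster, at -2.50 in ES and 2.36 in MEF. All 4 clusters held genes that were lower in ES, at the paralogue numbers shown in the plot of the clusters. Hoxb4 was the gene higher in ES, at -1.91 against -2.96 in MEF. Of the 9 Hox cofactors, Meis2 lay at -1.72 in ES and 1.94 in MEF and Meis1 at -1.96 in ES and 0.85 in MEF, while Pknox2 lay at -0.92 in ES and -5.71 in MEF.

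**Figure D5:**
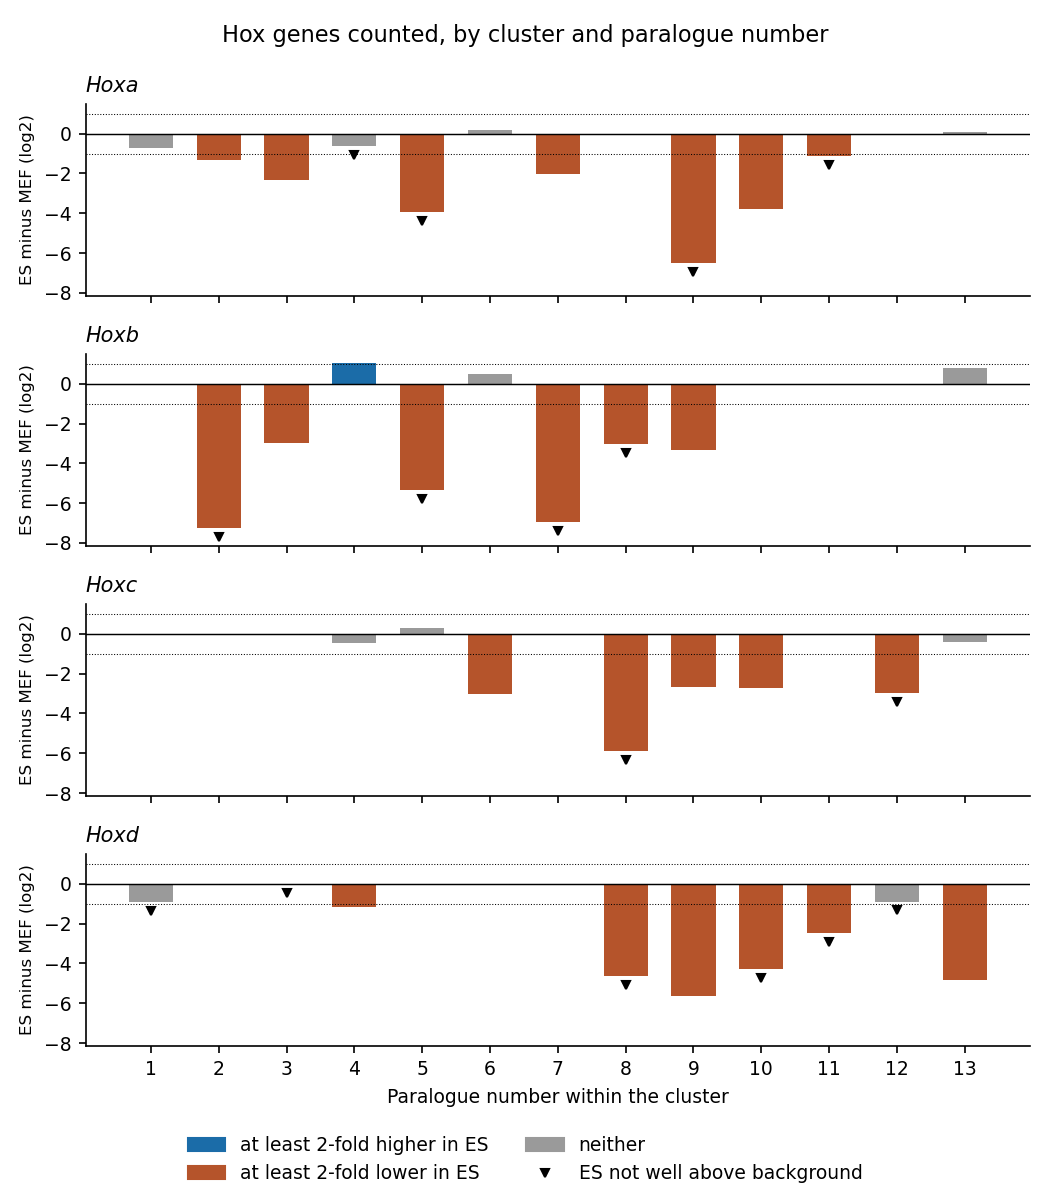
Difference between ES and MEF (ES minus MEF, log2) of the Hox genes counted, by cluster (panels) and paralogue number (horizontal axis). Brown bars are at least 2-fold lower in ES, blue at least 2-fold higher and grey neither, dotted lines mark 2-fold, and triangles mark genes not well above background in ES. Hoxb2, Hoxb7 and Hoxa9 are the furthest lower, at -7.25, -6.97 and -6.50, and Hoxb4 is the bar above 1, at 1.05.

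The Polycomb complexes, which hold Hox genes silent in ES cells, differed in their subunits. Of 26 genes of Polycomb repressive complex 1 (PRC1), 11 were higher in ES and 8 lower, beside 31.2% and 24.2% of all genes. Bmi1 (Pcgf4), a factor used with Oct4 for reprogramming in this study, lay at -2.10 in ES and 0.37 in MEF, a difference of -2.47. Its second probe differed by 1.16, so the direction rests on the probe. Its relative Pcgf6 lay at 0.53 in ES and -3.81 in MEF, with a second probe that differed by 0.06. The chromodomain subunit Cbx7 lay at 0.34 in ES and -5.44 in MEF, a difference of 5.78, and the Polyhomeotic subunit Phc1 at 2.14 in ES and -3.36 in MEF, a difference of 5.49. In contrast, Cbx8 lay at -2.78 in ES and -0.13 in MEF and Phc2 at -1.18 in ES and 0.82 in MEF. The second probes of Cbx8 and Phc2 differed by less, at -0.71 and -0.15.

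Of 13 genes of Polycomb repressive complex 2 (PRC2), 7 were higher in ES and none lower, with a median of 1.38 (0.77 after normexp background correction). Jarid2, which recruits PRC2 in ES cells, was saturated in ES at 5.52 and lay at 2.22 in MEF. Mtf2 was saturated in ES at 5.37 and lay at 1.75 in MEF. Ezh2, the methyltransferase, lay at 1.10 in ES and -1.28 in MEF, and Suz12 at 2.82 in ES and 1.33 in MEF. Eed lay at -0.36 in ES and -0.37 in MEF.

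Of 24 genes of DNA methylation and its removal, 10 were higher in ES and 3 lower. The de novo methyltransferase Dnmt3b lay at -1.05 in ES and was dim in MEF, at least 55.7-fold higher, whereas Dnmt3a lay at 3.56 in ES and 3.08 in MEF. The 5-methylcytosine oxidase Tet1 lay at 3.70 in ES and -1.52 in MEF, and Tet2 at 2.82 in ES and -0.44 in MEF, with a second Tet2 probe that differed by 0.51, whereas Tet3 lay at -1.17 in ES and -0.24 in MEF. Of 54 chromatin remodellers and histone modifiers, 19 were higher in ES and 8 lower, beside 31.2% and 24.2% of all genes. Cecr2, a bromodomain subunit of an ISWI remodeller, lay at 3.36 in ES and was dim in MEF at -9.02, at least 1190-fold higher, with its second probe at 7.55. The helicase Chd3 lay at -1.53 in ES and 2.38 in MEF.

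Genes of cell division were higher in ES in a broad and moderate way. Of 51 mitosis and replication genes, 36 were higher in ES and none lower, with a median of 1.43. Espl1 (separase), which opens cohesin at anaphase, stood out at 4.46 in ES and -3.26 in MEF, a difference of 7.71. The origin recognition subunit Orc1 lay at -1.34 in ES and was dim in MEF, at least 45.5-fold higher. The primase Prim1 lay at 2.94 in ES and -0.33 in MEF and the checkpoint kinase Bub1b at 2.30 in ES and -0.93 in MEF. Of 34 DNA repair genes, 26 were higher in ES and 1 lower (median 1.99). Fanci lay at 1.77 in ES and -2.67 in MEF, Chek2 at -1.82 in ES and -6.18 in MEF, and Parp1 at -1.56 in ES and -5.53 in MEF. Ercc1, a nuclease subunit of excision repair, was the one lower in ES, at -0.75 against 2.22 in MEF. Tert, the catalytic subunit of telomerase, lay at -4.16 in ES and -4.81 in MEF, and Terf1, which binds telomeres, at 1.93 in ES and -0.70 in MEF.

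Of 36 CDK inhibitors and p53 targets, 4 were higher in ES and 15 lower, beside 31.2% and 24.2% of all genes. Cdkn2b (p15Ink4b) lay at -3.30 in ES and 2.83 in MEF, a difference of -6.13. Its neighbour Cdkn2a, a locus that Bmi1 is known to repress, lay at -3.12 in ES and 0.33 in MEF, and Cdkn1a (p21) at 1.28 in ES and 3.44 in MEF. Fas, a death receptor, was at least 41.0-fold lower. The CDK inhibitor Cdkn2c (p18Ink4c) went the other way, at 1.31 in ES and -0.32 in MEF, and both its probes were higher in ES. In the list of G1 cyclins and kinases, 5 of 19 were higher in ES and 3 lower, neither share above that of all genes. Ccnd2 lay at -0.17 in ES and 4.12 in MEF and E2f2 at 2.78 in ES and -0.61 in MEF, whereas Ccnd1 lay at 5.28 in ES and was saturated in MEF at 5.10.

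Signalling pathways are read here by their members, since the counts of several lists lay near the 31.2% higher and 24.2% lower of all genes. Of 50 genes of the TGF-beta, BMP and Nodal pathways, 12 were higher in ES and 21 lower. The ligands Nodal (1.57 in ES and -3.06 in MEF), Gdf3 and Bmp6 and the co-receptor Tdgf1 were on the ES side, although the second probe of Bmp6 differed by 0.25. The activin subunit Inhba was dim in ES at -7.30 and lay at 2.93 in MEF, at least 315-fold lower. The BMP antagonist Grem1 was at least 531-fold lower, whereas another BMP antagonist, Chrd, lay at 3.02 in ES and -0.23 in MEF. The ligand Tgfb1 lay at -4.77 in ES and 2.17 in MEF. Of 49 Wnt pathway genes, 19 were higher in ES and 18 lower. The receptor Fzd10 lay at 3.38 in ES and -2.34 in MEF and the target gene Sp5 at 1.44 in ES and -2.67 in MEF. The second probe of Fzd10 differed by 0.99. The secreted antagonist Frzb was dim in ES and lay at 0.86 in MEF, at least 74.9-fold lower, whereas the related Sfrp4 lay at -0.30 in ES and -4.74 in MEF. The agonist Rspo3 lay at -4.61 in ES and 2.77 in MEF, and the ligand Wnt5a was at least 33.8-fold lower.

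Of 37 FGF and ERK feedback genes, 12 were higher in ES (32.4%) and 10 lower (27.0%), near the shares of all genes. Fgf15 lay at -2.11 in ES and was at least 26.7-fold higher, and the ERK-induced factors Etv4 and Etv5 lay at 3.30 and 1.21 in ES, against 0.20 and -1.63 in MEF. Fgf7, a growth factor that mesenchyme makes for epithelia, was dim in ES and lay at 2.95 in MEF, at least 318-fold lower. Of 27 Notch genes, 8 were higher in ES (29.6%) and 6 lower (22.2%), also near those shares. Among those higher were the ligand Jag2, at -0.36 in ES and at least 89.9-fold higher, and the receptor Notch4, at -0.81 and at least 65.7-fold higher. Of 20 Hedgehog genes, 7 were higher in ES and 7 lower, beside 31.2% and 24.2% of all genes. The target Gli1 lay at -3.54 in ES and -5.37 in MEF, while Gas1, a co-receptor of Sonic hedgehog, lay at -4.49 in ES and 0.63 in MEF and Gli3 at 0.95 in ES and 3.59 in MEF. Of 46 genes of LIF, receptor kinase and IGF signalling, 10 were higher in ES and 25 lower, with a median of -1.40. Erbb3 lay at 0.50 in ES and -5.33 in MEF, with the lowest of its 4 probes at a difference of 0.29, and Kit, the stem cell factor receptor, at -2.40 in ES and -6.76 in MEF.

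Genes of innate immunity were mostly lower in ES. Of 35 interferon-stimulated genes, 3 were higher in ES and 27 lower, with a median of -3.33. Ifit1, which blocks the translation of viral RNA, was dim in ES at -7.31 and lay at 3.28 in MEF, at least 400-fold lower. Rtp4 was at least 624-fold lower, Oasl2 at least 260-fold and Ifit3 at least 167-fold. The transmembrane protein Ifitm1 went the other way, at 2.85 in ES and -0.38 in MEF. Sister iPS lines differed by 7.14 in Ifit1, 7.83 in Ifit3, 6.47 in Oasl2 and 0.94 in Ifitm1 (root mean square, log2). Of 19 MHC class I and antigen processing genes, 1 was higher in ES and 12 lower. B2m, the invariant chain of MHC class I, lay at 2.50 in ES and was saturated in MEF at 5.15, and the aminopeptidase Erap1 was at least 41.6-fold lower.

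Of 44 chemokines, cytokines and their receptors, 2 were higher in ES and 36 lower, with a median of -3.86. Il1rl1, the interleukin 33 receptor, was dim in ES at -7.31 and saturated in MEF at 5.11, at least 1420-fold lower, and the least different of its 3 probes differed by -6.46. Ccl9 was dim in ES and lay at 2.98 in MEF, at least 325-fold lower. The acute phase protein Saa3 lay at -4.81 in ES and 4.12 in MEF, and the interleukin 1 antagonist Il1rn was at least 408-fold lower. Il6 was at least 67.3-fold lower. Of 24 macrophage and leukocyte markers, 8 were higher in ES and 9 lower, beside 31.2% and 24.2% of all genes. Ctss, a macrophage protease, was at least 62.0-fold lower, Tyrobp at least 78.7-fold and Adgre1 at least 61.8-fold, while Laptm5 lay at 2.57 in ES and -4.68 in MEF. The part of macrophages in the MEF sample in these differences was not tested.

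Imprinted genes are expressed from 1 parental allele. Of 41 counted, 12 were higher in ES and 18 lower, beside 31.2% and 24.2% of all genes. H19 lay at -1.90 in ES and 3.74 in MEF, its neighbour Igf2 at -1.28 in ES and 3.88 in MEF, and the growth regulator Plagl1 at -0.84 in ES and saturated at 5.13 in MEF. Meg3, the noncoding RNA of the Dlk1-Dio3 cluster, lay at -3.22 in ES and 3.01 in MEF, and Rian of the same cluster was dim in ES and lay at -1.69 in MEF. The 5 probes of Meg3 differed by -8.24 to 0.03. Phlda2 lay at 2.94 in ES and -2.55 in MEF, and Slc38a4 at 3.21 in ES and -1.89 in MEF. Sister iPS lines differed by 5.50 in Meg3 and by 0.29 in Phlda2 on the log2 scale (root mean square), so Meg3 also varied between lines of 1 kind.

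Of the Y-linked genes in the list, 5 lay well above background on the MEF array and were called lower in ES by the probe used. Kdm5d was dim in ES at -7.26 and lay at 1.37 in MEF, at least 106-fold lower, Ddx3y lay at -3.64 in ES and 2.36 in MEF, and Eif2s3y at -4.39 in ES and 0.84 in MEF. Uty was dim in ES at -5.05 and lay at 0.09 in MEF, but its second probe differed by 1.77, so its direction rests on the probe. Zfy1 was dim in ES at -7.20 and lay at -5.10 in MEF. The labels give the sex of neither sample. The 4 probes of Xist, the RNA that coats the inactive X chromosome, differed by -6.60 to 2.91, so no direction is given for it. Ftx, a noncoding RNA of the X-inactivation centre, lay at 0.55 in ES and 3.64 in MEF. Over the 758 genes counted on the X chromosome the median difference was 0.09.

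Ribosomal and respiratory chain genes were rarely called, beside the 55.4% of all genes called either way. Of 48 ribosomal proteins, 3 were higher in ES and none lower, and of 58 subunits of the respiratory chain, 4 were higher and 3 lower. Cox7a1 lay at 1.46 in ES and -1.64 in MEF and the testis-type subunit Cox6b2 at 5.04 in ES and 2.65 in MEF. Of 38 genes of glucose uptake and glycolysis, 13 were higher in ES and 3 lower, with Slc2a3 (above), the glucose transporter Slc2a4 at -1.28 in ES and -5.11 in MEF, and Pcx, pyruvate carboxylase, at 1.19 in ES and -1.98 in MEF. In the list of telomere and amino acid genes of pluripotent cells, 11 of 17 were higher in ES and none lower. Gldc, of the glycine cleavage system, lay at -0.29 in ES and was at least 94.5-fold higher, and Gcat, of threonine breakdown, lay at 0.86 in ES and -5.18 in MEF. Of 40 lysosome and autophagy genes, 3 were higher in ES and 22 lower (median -1.26), with the cathepsins Ctsk at -3.71 in ES and 1.14 in MEF and Ctso at least 74.9-fold lower. Of 38 sterol and fatty acid synthesis genes, 5 were higher in ES and 7 lower, and of 19 cholesterol efflux genes 5 and 2. Among those, the apolipoproteins went opposite ways, with Apoc1 at 3.02 in ES and -3.21 in MEF and Apoe at -1.86 in ES and 3.14 in MEF.

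The genes furthest apart included several of little-known role in these cells. Platr10, a noncoding RNA associated with pluripotency, lay at 5.10 in ES and was dim in MEF at -8.98, at least 3950-fold higher, and sister iPS lines differed by 0.25 in it. The signalling adaptor Ccdc88c was at least 3460-fold higher and lay at 5.12 in ES. Fmr1nb was at least 1420-fold higher, the phospholipase Pla2g1b at least 1230-fold, the sodium channel Scn8a at least 1130-fold, the endosomal adaptor Hook1 at least 962-fold and the testis cytochrome c gene Cyct at least 502-fold. Several of these rest on their probe. The second probe of Scn8a differed by 0.48 and the lowest of the 4 probes of Hook1 by 0.81. At the other end, Prss23, a secreted protease, was dim in ES at -7.29 and saturated in MEF at 5.14, at least 1460-fold lower, although its second probe differed by 0.05. The small GTPase Rhoj was at least 1290-fold lower, with its second probe at -6.35. The mast cell protease gene Mcpt8 was at least 682-fold lower, the noncoding RNA Dnm3os at least 552-fold, the platelet chemokine gene Ppbp at least 527-fold and the secreted protein gene Fibin at least 527-fold. The 20 genes furthest lower also varied between sister iPS lines, by between 2.92 in Serpinf1 and 8.16 in Dcn (root mean square, log2). Among 7013 genes with several probes, 3491 were called, and for 1767 of those (50.6%) all probes were past 2-fold in the same direction.

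Promoters of the genes furthest apart had a lower median CpG ratio, given here as a description with no test. The median ratio of observed to expected CpG was 0.51 for genes at least 8-fold higher in ES, 0.55 for those at least 8-fold lower and 0.75 for genes not called, against 0.70 for all 13072. A ratio over 0.6 was found in 43.9% and 44.6% of the promoters at least 8-fold higher and lower, and in 67.0% of those not called. The lists differed in the same measure, with a median of 0.32 for matrix proteases and for fibroblast surface markers, 0.57 for core pluripotency factors, 0.88 for mitosis and replication genes and 0.95 for PRC2 subunits. The TATA box letters TATAAA stood in 12.1% of promoters at least 8-fold higher in ES, in 14.2% of those at least 8-fold lower and in 8.6% of those not called.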

How the data were processed

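Total RNA of each sample was labelled with Cy3 and hybridised once, per the labels. The deposited intensity values are the processed signals of Agilent Feature Extraction 9.5.3.1, background-subtracted and not scaled between arrays, per the file headers, and the deposited flags mark spots well above background, saturated or outlying. Probe positions are in build mm7. Any later step is not given in the sources used here. Each array had 45018 spots, 43379 of them for genes, and 41174 gene probes. Spots marked as outliers were removed, replicate spots averaged as log2, and each array's 75th percentile subtracted. Genes were named through RefSeq by accession (23082 probes) or symbol (9655), and 8437 probes kept their deposited name. A gene took its probe brightest over 12 arrays among those well above background on any. The intensity 75th percentile was 1596.7 for ES and 1876.7 for MEF. Replicate spots had a median SD of 0.1127 and 0.1010.

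The call was a difference of 2-fold. With 1 array a group no test was made. limma 3.58.1 in R 4.3.3, which borrows its spread from the iPS lines, was run as an alternative, and tested on simulated data. Over 8 groups that spread came from the iPS pairs. Over 4 classes with slide it came from all iPS lines taken as 1 class, made in different ways. Python 3.11.15, pandas 2.3.3 and matplotlib 3.10.9 did the rest. Named were Bmi1 and the main pluripotency factors, the 20 genes furthest apart each way and up to 5 members each way of each list. Genes named beyond that rule were chosen after their values were seen, as were the gene families and chromosomal runs of the closing section. Some genes that met the rule are not reported here. The comparison, the gene lists and the motifs were chosen with earlier results of these data known.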

Additional observations from a re-analysis of the deposited data

How the results depend on the processing

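No paired analysis was possible because ES and MEF had 1 array each. Differences across 10 planned settings and 1 added after seeing the data (dim signals raised to the higher of the 2 floors) were compared with those reported. The 6760 genes higher in ES became 11472 with no filter on dim probes, where 68.7% of calls were higher against 56.4%. The 5234 genes lower in ES became 3181 when both arrays had to lie well above background, which removes genes off in ES by construction. limma over 8 groups called 1046 genes higher and 271 lower at an adjusted p of 0.05, and over 4 classes with slide as a block 1257 and 325. Quantile normalization moved the median of all genes to 0.05. All 28 lists with a median of 2-fold or more kept their direction in the 11 settings. Requiring both arrays above background gave medians of 2.95 for pluripotency factors, -0.94 for matrix proteases, -1.03 for collagen enzymes, -0.54 for collagens and -2.09 for interferon genes. Of 464 named genes, 17 reversed. With the mean of all probes these were Cdk6 (1.45), Cybb (-0.27), Heyl (0.36), Jag1 (0.59), Mcam (-1.80), Pcgf5 (-0.15), Plaur (-0.08), Tnfrsf10b (-0.58), Uqcrq (0.37) and Xist (-2.37). With the brightest probe on the ES and MEF arrays they were Col4a6 (-2.75), Dazl (-3.30), Ddc (-1.55), Itgae (-0.45) and Pax6 (-1.24), and with each array's floor Lor (0.11) and Tdpoz1 (0.60). The cause was not tested. Dim signals differed between the arrays: 9222 probes dim on both had medians of -7.29 in ES and -8.91 in MEF. Unbounded differences of probes dim on both thus lean toward ES. Among the genes counted, raising dim signals to each array's floor left 6760 higher but cut those lower in ES to 4408. With the higher of the 2 floors the counts were 6333 and 4408.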

Other observations

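Runs of 6 or more neighbouring genes called in the same direction were listed in the order of the array design's build (mm7), and those below were picked after their values were seen, with no test. On chromosome 1 between 173613294 and 173992600, 7 neighbouring genes of the interferon-inducible Ifi200 family region, such as Ifi204 and Ifi205, were lower in ES, with a median difference of -6.49. On the same chromosome between 40362239 and 41013869, 7 neighbours with the interleukin 1 receptor genes Il1r1, Il1rl1 and Il18r1 were lower (median -4.30). The chemokine clusters of chromosome 11 gave runs of 9 genes (83582302 to 83785984, median -3.33) and 9 genes (82118723 to 82800945, median -3.40). Cav1, Cav2, Met (whose 3 probes differed by -2.90 to 0.59) and Wnt2 stood in a run of 9 lower genes on chromosome 6 (15741404 to 17929740, median -3.71). In the other direction, 13 neighbours near the start of chromosome 14 (3021363 to 5116118) were higher in ES (median 2.26), most of them predicted genes of unknown role, and 9 neighbours around Klf5 and Klf12 on the same chromosome were higher (median 2.32). Neighbouring probes in repeated gene clusters can share sequence, and cross-hybridisation was not tested.

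Gene families named by symbol gave further patterns. Of 320 genes with Zfp zinc finger names, 125 were higher in ES (39.1%) and 48 lower (15.0%), beside 31.2% and 24.2% of all genes. Of 15 connexins, 8 were higher in ES and 3 lower. Of 13 S100a genes, 2 were higher in ES and 8 lower, of 34 serpins 10 and 17, and of 32 protocadherins 6 and 17. Of 470 olfactory receptors, 148 (31.5%) were higher in ES and 92 (19.6%) lower, close to the shares of all genes. Of 15 skeletal and cardiac muscle markers, 9 were higher in ES and 2 lower, with the myosin heavy chain gene Myh8 at 0.27 in ES and at least 125-fold higher, and the myosin light chain gene Mylpf at 1.62 in ES and -4.04 in MEF. Of 16 endothelial markers, 9 were higher in ES and 4 lower, among them the receptor Tek, at -2.37 in ES and at least 22.3-fold higher. Of 34 neural genes, 10 were higher in ES and 11 lower, with Fabp7 dim in ES and at -0.67 in MEF.

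Hprt, the purine salvage enzyme often used as a reference gene, lay at -0.73 in ES and was saturated in MEF at 5.11, at least 57.5-fold lower. Actb, Pgk1 and Ywhaz were saturated on both arrays by the probe used, and their second probes differed by 3.99, 0.40 and 1.64. Hprt has 1 probe. The iPS lines lay between -1.83 and 2.74, with a median of -0.38, and sister lines differed by 3.27 (root mean square, log2). The labels do not name the ES line, so its Hprt genotype is unknown. Of 20 control genes, 5 were higher in ES and 3 lower, beside 31.2% and 24.2% of all genes. The transferrin receptor gene Tfrc lay at 2.56 in ES and -0.07 in MEF.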
